A study of Mus musculus with 37 samples.

Results

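Lungs of fetuses of the mouse strain C57BL/6J (B6) at E16.5, in embryonic days after mating, were compared with B6 lungs at E15.5. This step used 6 of the 37 arrays of the series, 3 at each age. All arrays were Affymetrix Mouse Gene 1.0 ST arrays, which carry several short probes along each transcript and report a probe set value on the log2 scale. Each array held RNA from homogenates of whole right lungs of untreated fetuses, with 3 males of a litter pooled, so that a replicate was a litter and its age was set by recorded mating times. The features described are the 21789 of 35556 probe sets that carry exactly 1 gene symbol, standing for 19938 genes. The same ages of the strain A/J, also with 3 litters each, are given beside the B6 values where the strains were compared.

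At this age the mouse lung passes from the pseudoglandular stage, in which branching builds the airway tree, to the canalicular stage. In the canalicular stage the distal tubules widen, capillaries move toward the epithelium, and epithelial cells begin to take on the type I fate, the thin cells of gas exchange, or the type II fate, the cells that make surfactant. Surfactant is the mixture of phospholipid and protein that keeps air spaces open after birth, and type II cells store it in lamellar bodies. The array values come from whole tissue, so fewer cells of a kind and less RNA per cell cannot be told apart.

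The markers of lung were present in all 6 arrays. The mRNA of Nkx2-1, the transcription factor that defines the lung epithelium, lay between 9.16 and 9.42 at E15.5 and between 9.66 and 9.80 at E16.5. The mRNA of Tbx4, a transcription factor of lung mesenchyme, lay at 10.02, 10.13 and 10.12 at E15.5 and at 10.20, 10.16 and 10.18 at E16.5. Foxf1 and Hoxa5, which also mark this mesenchyme, were above 10 in every array. The median of all probe sets of an array lay between 6.36 and 6.40.

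Replicate 1 of both ages held liver mRNAs. Alb, which encodes albumin, had log2 values of 11.49, 5.59 and 5.47 in replicates 1, 2 and 3 at E15.5, and of 10.52, 6.45 and 6.20 at E16.5. Of 24 liver genes, 23 were highest in replicate 1 at E15.5 and 21 were highest in replicate 1 at E16.5. Their mean was 7.27 in replicate 1 and 5.45 and 5.50 in the others at E15.5, against 6.51, 5.65 and 5.58 at E16.5. Erythroid genes, those of the red cell lineage (18 genes), had a mean of 7.55 in replicate 1 at E15.5 and between 6.75 and 6.94 in the other 5 arrays. Genes of heart muscle (20 genes) had a mean of 7.28 in replicate 1 at E15.5 and 7.0 in replicate 1 at E16.5, against 6.53 to 6.81 elsewhere. Where a count of list members moved by over 1.5 times without replicate 1 of both ages, it is also given that way.

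**Figure D1:**
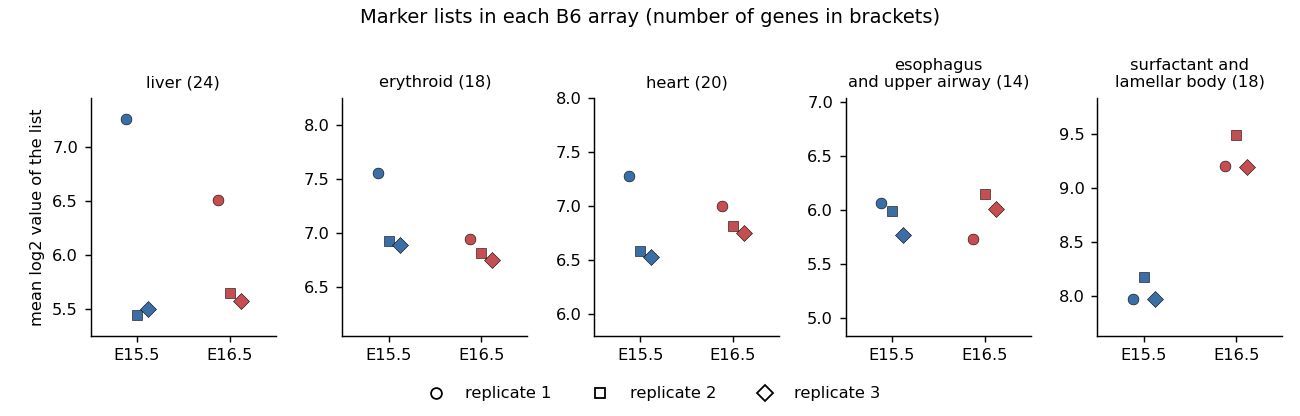
Mean log2 value (vertical axis, each panel spanning the same height) of the liver, erythroid, heart, esophagus and surfactant gene lists in each of the 6 B6 arrays, by age. Circles are replicate 1, squares replicate 2 and diamonds replicate 3; replicate 1 stands above the others for liver genes at both ages (7.27 and 6.51), while for the surfactant list replicate 2 is highest at both ages.

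A probe set was said to rise or fall where limma's adjusted p for the difference between the ages was under 0.05. By this rule 1490 probe sets rose and 1639 fell. These were 6.84% and 7.52% of all tested, and the median change over all probe sets was 0.00. Counted by gene, with 1 probe set each, 6.70% rose and 7.50% fell, which is the background for the list counts below. The 3 values of each age did not overlap for 35.3% of probe sets, and for 3096 of the 3129 that were called. Larger changes lay mostly on the rising side. With a fold of at least 1.5 as well, 474 rose and 176 fell (2.18% and 0.808%), and at a fold of 2 or more 128 rose and 9 fell. Scaling the arrays to equal quantiles once more turned the counts to 1698 higher and 1239 lower, so the share of calls that were higher went from 47.6% to 57.8%. Without replicate 1 of both ages 861 rose and 538 fell, and all 3129 called probe sets kept their sign. Fewer arrays give fewer calls, and the count of falls was also more than 1.5 times lower without replicate 1 of E15.5 alone (865) or replicate 2 of E16.5 alone (807).

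**Figure D2:**
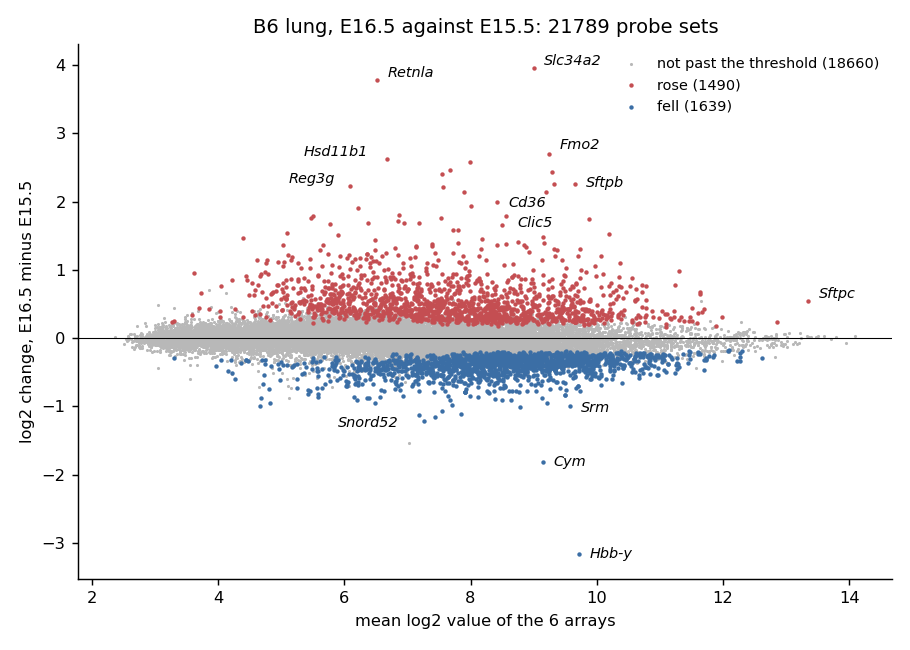
Log2 change from E15.5 to E16.5 (vertical axis) against the mean log2 value of the 6 arrays (horizontal axis) for 21789 probe sets. Red points rose (1490), blue points fell (1639) and grey points did not pass the threshold; the largest rise, Slc34a2, is at 3.95 and the largest fall, Hbb-y, at -3.17.

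The list of surfactant and lamellar body genes had the highest median change of the lists examined. Of its 18 measured genes 13 rose and none fell (background 6.70% of genes rising). The median change was 0.91 over the list against 0.00 over all probe sets. The same 13 and 0 were counted without replicate 1 of both ages. The list is wider than surfactant proteins, their processing and lamellar bodies. It also holds Lyz2, Ctsc and Cd74, which rose by 0.63, 0.87 and 0.53, and Etv5, Lyz1, Scd1 and Fabp5, which did not pass. Slc34a2 (probe set 10521892) encodes the phosphate transporter of type II cells. Its values were 6.73, 7.63 and 6.71 at E15.5 and 10.80, 11.39 and 10.73 at E16.5. The rise of 3.95 ± 0.25 (SE, n = 3 and 3) was the largest of all (adjusted p = 8.62e-13).

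Among the surfactant proteins the changes ran from 2.43 for Sftpa1 to 0.42 for Sftpd. Sftpb, whose product spreads the surfactant film, had values of 8.44, 8.75 and 8.40 at E15.5 and 10.58, 11.06 and 10.74 at E16.5, a rise of 2.26 ± 0.17 (adjusted p = 2.48e-11). Sftpa1, a lectin of surfactant and of lung defense, went from 7.94, 8.43 and 7.84 to 10.31, 10.82 and 10.36. Sftpc, which encodes a hydrophobic surfactant protein and is expressed by distal epithelium before type II cells form, had 13, 13.17 and 13.05 at E15.5 and 13.61, 13.70 and 13.52 at E16.5, a rise of 0.54 ± 0.09 (adjusted p = 0.000133). Sftpd, the other surfactant lectin, had 5.70, 5.74 and 6.00 at E15.5 and 6.13, 6.43 and 6.13 at E16.5, and its change of 0.42 ± 0.16 did not pass the test (adjusted p = 0.0861).

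Genes that process and store surfactant rose with them. Lamp3, a membrane protein of lamellar bodies, rose by 2.57 ± 0.16. Napsa and Ctsh, proteases that trim the precursors of surfactant proteins B and C, rose by 2.46 ± 0.14 and 1.74 ± 0.15. Abca3, the lipid pump of the lamellar body, had 7.71, 8.06 and 7.85 at E15.5 and 9.16, 9.39 and 9.20 at E16.5, a rise of 1.38 ± 0.09. Lpcat1, which makes dipalmitoyl phosphatidylcholine, rose by 0.94 ± 0.08. In 12 of the 18 genes replicate 2 was the highest at E15.5, and in 15 it was the highest at E16.5. The ages did not overlap in 15 of the 18, against 35.3% of all probe sets.

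The regions before the start sites of these genes were read from RefSeq (build GRCm38.p6, 250 bases before each start), which held a region for 11 of the 18 genes. The next sequences are shown as those of genes that rose and that hold a motif of an epithelial regulator, FOXA (TGTTTNC) in Lamp3 and NKX2-1 (CTCAAG) in Sftpa1, each searched on both strands, with the matching bases in capitals. The Lamp3 region is chr16:19706366-19706615 on the minus strand and that of Sftpa1 is chr14:41131538-41131787 on the plus strand, 5′ to 3′.
Lamp3: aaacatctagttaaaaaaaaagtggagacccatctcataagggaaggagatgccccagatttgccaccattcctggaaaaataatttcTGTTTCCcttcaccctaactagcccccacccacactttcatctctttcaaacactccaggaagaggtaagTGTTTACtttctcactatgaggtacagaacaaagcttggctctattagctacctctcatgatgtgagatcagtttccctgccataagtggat
Sftpa1: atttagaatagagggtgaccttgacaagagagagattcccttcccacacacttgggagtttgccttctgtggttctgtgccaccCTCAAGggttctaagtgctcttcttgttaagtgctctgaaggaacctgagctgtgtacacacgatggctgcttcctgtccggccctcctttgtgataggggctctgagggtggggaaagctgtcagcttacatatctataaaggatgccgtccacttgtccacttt
The FOXA motif was found in 25.0% of 12 regions of the list and in 17.8% of all 32851 regions, and the NKX2-1 motif in 16.7% and 13.3%. Another motif, of C/EBP (TTGCNNAA), was found in 16.7% and 9.56%. These shares were thus near those of all regions.

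Genes of type I cells rose as broadly. Of 18 genes, 14 rose and none fell, with a median change of 0.62, and 12 rose without replicate 1 of both ages. Ager, a receptor of the type I cell membrane, had 9.27, 9.66 and 9.37 at E15.5 and 10.84, 11.21 and 10.81 at E16.5, a rise of 1.52 ± 0.12 (adjusted p = 2.88e-10). Hopx, a homeodomain cofactor of this cell, went from 6.77, 7.08 and 6.96 to 8.50, 8.78 and 8.26, a rise of 1.58 ± 0.11. For both genes the lowest value at E16.5 lay more than 1 above the highest at E15.5. Clic5, an intracellular chloride channel protein, rose by 1.79 ± 0.11, and Emp2, a membrane protein of type I cells, by 1.20 ± 0.10. The caveolins Cav1 and Cav2, which coat the pits of the thin cell membrane, rose by 0.45 ± 0.10 and 0.61 ± 0.12. Aqp5, the water channel that marks mature type I cells, had 7.23, 7.2 and 7.27 at E15.5 and 7.13, 7.41 and 7.03 at E16.5. Its change of -0.04 ± 0.13 did not pass the test (adjusted p = 0.901). Markers of both alveolar fates thus rose within the same day, with Aqp5 and Sftpd among those that did not pass.

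The conducting airway changed in its secretory and its ciliated genes. Of 13 genes of airway secretory cells, 7 rose and none fell, and the same count was found without replicate 1 of both ages. Scgb1a1, the main secretory protein of club cells, had 4.90, 4.38 and 4.57 at E15.5 and 6.25, 6.88 and 6.07 at E16.5, a rise of 1.78 ± 0.41 (adjusted p = 0.00284). Scgb3a2, a related protein, went from 8.35, 8.67 and 8.19 to 9.95, 9.95 and 9.76. Reg3g, an antimicrobial lectin, rose by 2.22 ± 0.29, and Cyp2f2, a cytochrome P450 of club cells, by 1.39 ± 0.14. Hp, which encodes haptoglobin and is made by liver as well as by airway, had 6.74, 7.13 and 6.64 at E15.5 and 8.93, 9.16 and 8.82 at E16.5. It was not highest in replicate 1 at either age, and its rise was 2.13 ± 0.19.

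Of 19 genes of ciliated cells, 15 rose and none fell, with a median change of 0.64, and 14 rose without replicate 1 of both ages. Dynlrb2, a light chain of the dynein motor, had 5.77, 6.62 and 6.06 at E15.5 and 7.43, 7.57 and 7.41 at E16.5, a rise of 1.32 ± 0.15 (adjusted p = 1.24e-07). Spag6l, a protein of the central pair of the axoneme, rose by 1.25 ± 0.14. The radial spoke genes Rsph1 and Rsph4a rose by 1.05 ± 0.12 and 1.04 ± 0.19, and the outer arm dynein Dnah5 by 0.74 ± 0.12. Lrrc23, a further radial spoke gene, went from 6.61, 6.80 and 6.53 to 8.47, 8.48 and 8.27. Foxj1, the transcription factor that drives motile cilia, had 7.27, 7.29 and 7.29 at E15.5 and 7.54, 7.53 and 7.58 at E16.5. The ages did not overlap for Foxj1, but its change of 0.27 ± 0.13 did not pass the test (adjusted p = 0.192). Mcidas, which acts early in the ciliated fate, likewise had a change of 0.26 ± 0.12 that did not pass.

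The regions before the start of the ciliated genes were searched for the RFX site GTTGCC on both strands. It was found in 44.4% of 18 regions of the list, against 10.4% of all regions. This share describes the list and not its change at E16.5, and a link between the site and the rises was not tested. The region of Dynlrb2 (chr8:116504765-116505014, plus strand) is shown as that of the list's largest rise, with the motif in capitals.
Dynlrb2: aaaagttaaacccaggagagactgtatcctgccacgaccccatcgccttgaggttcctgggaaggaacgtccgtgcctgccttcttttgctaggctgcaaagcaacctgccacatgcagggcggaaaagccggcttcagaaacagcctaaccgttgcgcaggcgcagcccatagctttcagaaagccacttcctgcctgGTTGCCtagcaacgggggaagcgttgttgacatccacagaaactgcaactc

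**Figure D3:**
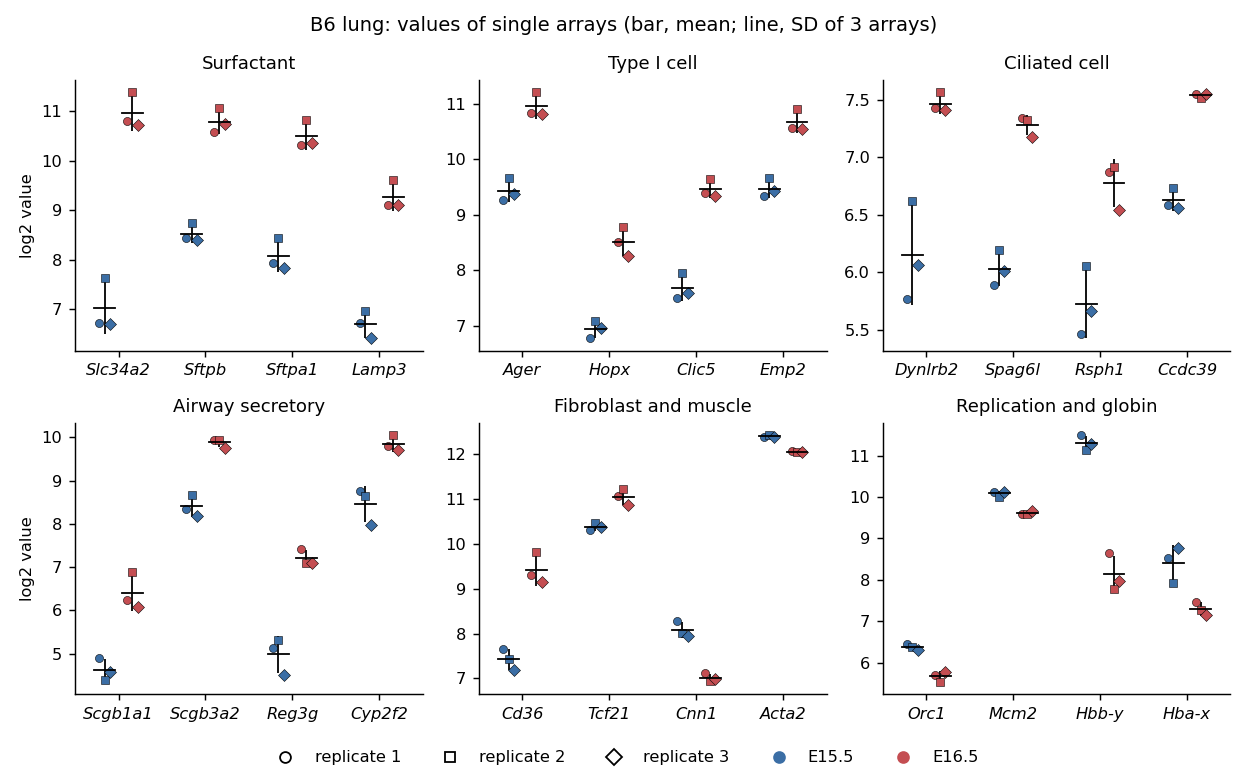
Log2 values (vertical axes) of 24 genes in 6 groups in each B6 array, E15.5 in blue and E16.5 in red, with symbols for replicates 1 to 3, a bar for the mean and a line for the SD of 3 arrays. The genes shown were picked with earlier results of these data known. In each of them the ages do not overlap, from Slc34a2, which rose by 3.95, to Hbb-y, which fell by 3.17, while Acta2 moved by only -0.34.

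Several transcription factors of the epithelium rose, and 1 of the proximal airway fell. Of 27 such factors, 11 rose and 1 fell, and 7 rose and 1 fell without replicate 1 of both ages. After Hopx, the largest rises were those of Klf5 (0.89 ± 0.10), Elf5 (0.77 ± 0.11) and Cebpa (0.77 ± 0.10), a regulator of surfactant and lipid genes. Nkx2-1 rose by 0.42 ± 0.08 (adjusted p = 0.000201). Foxa1 and Foxa2, which act with it, had changes of 0.10 ± 0.09 and 0.02 ± 0.09 that did not pass. Sox2, the factor of the proximal airway, fell, with values of 8.54, 8.36 and 8.54 at E15.5 and 7.81, 7.72 and 7.78 at E16.5, a change of -0.71 ± 0.10 (adjusted p = 6.34e-06). Of 18 regulators that the study itself named for this age, 15 rose and none fell. The study chose them on these samples, so that count is no independent evidence of their direction.

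Genes of the distal tip, the progenitor zone of branching, did not move as a group. Of 14 genes, 2 rose and 3 fell. Mycn, a factor of progenitor growth, had 8.84, 8.91 and 8.94 at E15.5 and 8.22, 8.18 and 8.20 at E16.5, a change of -0.70 ± 0.14 (adjusted p = 0.00068). Sox11 and Hmga2, both of fetal progenitors, fell by 0.58 and 0.40 on the log2 scale, the latter not without replicate 1 of both ages. Sox9, the marker of the tip, had a change of -0.12 ± 0.12 that did not pass (adjusted p = 0.638). Cpm, a carboxypeptidase of the distal epithelium, rose by 1.26 ± 0.10. Of 14 neuroendocrine genes, only Uchl1 was called, with a change of -0.63 ± 0.13.

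The mesenchyme was split between fibroblast and muscle genes. Of 18 genes of lipofibroblasts and alveolar fibroblasts, 11 rose and none fell, with a median of 0.44, and 9 rose without replicate 1 of both ages. Cd36, a fatty acid transporter that endothelium also expresses, had 7.66, 7.43 and 7.19 at E15.5 and 9.31, 9.82 and 9.14 at E16.5, a rise of 2.0 ± 0.13 (adjusted p = 8.79e-13). Tcf21, the transcription factor of lung fibroblasts, went from 10.30, 10.47 and 10.37 to 11.07, 11.23 and 10.86. Fgf7, a growth factor for epithelium, rose by 0.86 ± 0.15. Pparg and Plin2, genes of lipid storage, rose by 0.43 ± 0.10 and 0.32 ± 0.09, but neither was called without replicate 1 of both ages. Inmt, Fabp4 and Lpl had changes of 0.19 ± 0.30, -0.10 ± 0.20 and -0.17 ± 0.13 that did not pass.

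Of 21 genes of smooth muscle and myofibroblasts, 7 fell and 3 rose, and 3 fell and 2 rose without replicate 1 of both ages. Cnn1, a calponin of differentiated smooth muscle, had 8.28, 8.02 and 7.94 at E15.5 and 7.11, 6.95 and 6.98 at E16.5, a change of -1.07 ± 0.21 (adjusted p = 0.000481). Acta2, its actin, went from 12.39, 12.42 and 12.37 to 12.07, 12.04 and 12.05. Myocd, the coactivator of the contractile program, fell by 0.64 and Myl9, a myosin light chain, by 0.57 on the log2 scale. Of the others that fell, Acta2, Actg2, Tpm2 and Tagln were not called without replicate 1 of both ages. The genes that rose were Aspn, a matrix protein (0.64 ± 0.13), Cspg4, which marks pericytes (0.41 ± 0.11), and Hhip (0.34 ± 0.10), a hedgehog antagonist. Of these only Aspn was called without replicate 1 of both ages.

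Of 12 mesothelium genes 3 rose and none fell. Msln, which encodes mesothelin, had 6.14, 6.60 and 6.30 at E15.5 and 7.93, 8.49 and 7.69 at E16.5, a rise of 1.69 ± 0.16 (adjusted p = 3.65e-09), and the other 2 were the keratins Krt19 and Krt8 (0.90 ± 0.11 and 0.57 ± 0.10), which epithelium also expresses.

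Matrix genes rose in part. Eln, which encodes elastin, had 11.20, 11.61 and 11.11 at E15.5 and 11.87, 12.15 and 11.84 at E16.5, a rise of 0.65 ± 0.10, and 6 of 19 elastic fibre genes rose while 2 fell, with 6 and 0 without replicate 1 of both ages. Of 17 basement membrane genes, 8 rose and 1 fell. The laminin chain Lama3 of epithelial basement membrane rose by 1.14 ± 0.12 and Lama5 by 0.74 ± 0.09, while Lama1, the chain of the early embryo, fell by 0.42 on the log2 scale. Of 23 collagen chains, 7 rose, but without replicate 1 of both ages only 1 did. Col6a3 had the largest rise of them (0.76 ± 0.10). Has2, which makes hyaluronan, fell from 7.84, 7.80 and 7.61 to 6.71, 6.49 and 6.68 (adjusted p = 7.44e-06), and Lum, a proteoglycan of collagen fibrils, from 8.47, 8.02 and 7.54 to 6.89, 6.77 and 6.89 (adjusted p = 0.0185). The Lum call was lost without replicate 1 or 2 of E15.5, without replicate 2 of E16.5 and without replicate 1 of both ages.

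Of 38 endothelial genes, 9 rose and 1 fell, with a median of 0.14, and 6 rose and 0 fell without replicate 1 of both ages. Calcrl, the receptor of adrenomedullin, lay between 8.95 and 9.08 at E15.5 and at 9.96, 10 and 9.89 at E16.5, a rise of 0.93 ± 0.11 (adjusted p = 4.11e-07). Epas1, the hypoxia-inducible factor of endothelium, rose by 0.71 ± 0.11. Pecam1 and Cdh5, adhesion proteins found in all endothelium, rose by 0.34 ± 0.08 and 0.30 ± 0.07. Kdr, the main VEGF receptor, rose by 0.26 ± 0.07, a call lost without replicate 1 of E15.5 or replicate 2 of E16.5. Car4, a marker of the capillary cells that face type I cells, had a change of 0.03 ± 0.20 that did not pass. Of 26 genes of hypoxia and angiogenic ligands 6 rose and 2 fell, and 2 rose and 0 fell without replicate 1 of both ages. Hif3a, a further hypoxia-inducible factor, had 8.60, 8.76 and 8.72 at E15.5 and 9.63, 9.74 and 9.47 at E16.5, a rise of 0.92 ± 0.14. Mmrn1, a secreted protein of lymphatic endothelium, had 8.69, 8.48 and 8.46 at E15.5 and 7.79, 7.53 and 7.72 at E16.5, and it was the only one to fall among 9 lymphatic genes, of which 3 rose, with no rise called without replicate 1 of both ages.

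Signaling genes were read by pathway, against 6.70% of all genes rising and 7.50% falling. In the FGF pathway 6 of 20 genes rose and none fell. These were the ligands Fgf7, Fgf1 (0.75 ± 0.11) and Fgf18 (0.38 ± 0.10) and the receptors Fgfr2 (0.41 ± 0.08), Fgfr3 (0.47 ± 0.08) and Fgfr4 (0.46 ± 0.10). Fgf10, the ligand of branching, had a change of 0.19 ± 0.09 that did not pass. In the Wnt pathway 3 of 37 genes rose and 8 fell, and 2 rose and 5 fell without replicate 1 of both ages. The falls included the secreted antagonists Sfrp2 (-0.88 ± 0.14) and Sfrp1 (-0.65 ± 0.14), the agonist Rspo2 (-0.78 ± 0.16), the ligand Wnt2b (-0.61 ± 0.10) and the transcription factor Lef1 (-0.41 ± 0.10). Of 13 hedgehog genes 1 rose and 2 fell, none of them called without replicate 1 of both ages. Gli3, a transcription factor of the pathway, fell by 0.42 on the log2 scale, while Shh, the ligand, had a change of 0.27 ± 0.10 that did not pass (adjusted p = 0.0739). Of 38 TGF-beta and BMP genes 7 rose and 4 fell, of which 2 and 1 were called without replicate 1 of both ages. Of 29 Notch genes 4 rose, and 2 rose without replicate 1 of both ages. The largest rise was that of Notch4 of endothelium (0.39 ± 0.08). Of 19 retinoic acid genes 2 rose and 2 fell, and 1 rose and 1 fell without replicate 1 of both ages. Dhrs3, which converts retinal to retinol, rose by 0.71 ± 0.11, and the receptor Rarb fell by 0.61 on the log2 scale.

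Glucocorticoid, which matures the fetal lung, is made active in tissue by the enzyme that Hsd11b1 encodes. Hsd11b1 had 5.26, 5.85 and 4.98 at E15.5 and 8.08, 8.24 and 7.63 at E16.5, a rise of 2.62 ± 0.18, or 6.15-fold (adjusted p = 3.68e-12). Nr3c1, the glucocorticoid receptor, rose by 0.31 ± 0.09, a call that was lost without replicate 1 of both ages. Of 17 genes listed for the glucocorticoid response, with Hsd11b1 itself counted among them, 6 rose and none fell. They included Zbtb16 (1.94 ± 0.23), Per1 (0.83 ± 0.15) and Klf9 (0.69 ± 0.14), all of which encode transcription regulators, while Fkbp5 and Dusp1 had changes of 0.37 ± 0.19 and 0.38 ± 0.17 that did not pass.

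Of 20 genes for moving salt and water 9 rose and none fell, with a median of 0.20, and 7 rose without replicate 1 of both ages. Besides Slc34a2, these included Scnn1a, the alpha subunit of the epithelial sodium channel, with 6.08, 6.22 and 6.03 at E15.5 and 7.63, 8.18 and 7.56 at E16.5, a rise of 1.68 ± 0.15. The gamma subunit Scnn1g rose by 0.51 ± 0.11, and the beta subunit Scnn1b had a change of 0.18 ± 0.12 that did not pass. Atp1b1, a subunit of the sodium pump, rose by 1.30 ± 0.11. Atp6v0a4, a subunit of the proton pump, was among the 20 largest rises of genes with a settled name (1.80 ± 0.16). Of 25 genes of claudins and epithelial junctions 13 rose and none fell, led by Cldn18 (0.78 ± 0.10) and Cdh1 (0.71 ± 0.07), and 8 rose without replicate 1 of both ages.

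Lipid synthesis genes moved in both directions. Of 30 genes of fatty acid and phospholipid synthesis 8 rose and 3 fell. Lpin1, a phosphatidate phosphatase, rose by 0.98 ± 0.18, while Elovl6, Fads1 and Fads2, which elongate and desaturate fatty acids, fell by 0.91, 0.41 and 0.45 on the log2 scale. Of 18 genes of cholesterol synthesis 5 fell and none rose, but only 1 fell without replicate 1 of both ages. Cyp51, its sterol demethylase, had 8.25, 8.24 and 7.86 at E15.5 and 7.46, 7.31 and 7.69 at E16.5.

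Genes of defense and detoxification held several of the largest rises. Retnla, a secreted resistin-like protein, had 4.34, 5.26 and 4.29 at E15.5 and 8.16, 8.82 and 8.23 at E16.5, a rise of 3.77 ± 0.24, or 13.7-fold (adjusted p = 9.91e-13). Cxcl15, the chemokine of lung epithelium, went from 8.22, 8.44 and 7.92 to 10.17, 10.87 and 10.32. Of 30 innate defense genes 9 rose and 1 fell, with 8 and 0 without replicate 1 of both ages. The risers included Muc1, Lcn2 and Il33 (1.03 ± 0.10, 1.0 ± 0.19 and 0.92 ± 0.19). Fmo2, the flavin monooxygenase of lung, had 7.84, 8.18 and 7.66 at E15.5 and 10.55, 10.80 and 10.41 at E16.5, a rise of 2.69 ± 0.17. Of 31 genes of xenobiotic and antioxidant metabolism 10 rose and 2 fell, with 9 and 0 without replicate 1 of both ages. Macrophage genes were mostly not called (2 rose and 1 fell of 28, with 2 and 0 without replicate 1 of both ages), with Lgals3, which epithelium also expresses, rising by 1.09 ± 0.13. Further large rises were those of Sec14l3, a lipid transfer protein (2.40 ± 0.13), Cbr2, a carbonyl reductase (2.13 ± 0.16), and Il18r1, a cytokine receptor (1.91 ± 0.11).

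The falls were smaller and were shared by many genes of DNA replication. Of 29 genes of replication licensing and synthesis 22 fell and none rose (background 7.50% of genes falling), with a median of -0.43. Orc1, the largest subunit of the origin recognition complex, had 6.44, 6.37 and 6.31 at E15.5 and 5.71, 5.54 and 5.78 at E16.5, a change of -0.70 ± 0.14 (adjusted p = 0.00074). Mcm2, a subunit of the replicative helicase, went from 10.12, 10.01 and 10.13 to 9.59, 9.58 and 9.66, a change of -0.48 ± 0.10. Each change was small against those of surfactant genes, and only Orc1 reached a fold of 1.5. All 29 changes were below 0. The count moved with single litters, with 7 falls without replicate 1 of both ages, 10 without replicate 2 of E16.5, 13 without replicate 2 of E15.5 and 14 without replicate 1 of either age. The list was highest in replicate 1 at E15.5 for 17 genes, and the part of the liver mRNA in the fall was not tested beyond these counts.

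Of 44 genes of the cell cycle 10 fell and none rose, with a median of -0.28. The count was 4 without replicate 1 of both ages, 6 without replicate 1 of E15.5, 5 without replicate 2 of E16.5, 27 in a fit of the 6 arrays alone and 19 in that fit with the replicate number as a block. Ccne1, the cyclin of entry to S phase, had 9.04, 8.83 and 8.85 at E15.5 and 8.12, 8.10 and 8.37 at E16.5, a change of -0.71 ± 0.12, and the D cyclins Ccnd1 and Ccnd2 fell by 0.40 and 0.37 on the log2 scale. Mki67 and Top2a, general markers of cycling cells, had changes of -0.20 ± 0.16 and -0.26 ± 0.21 that did not pass. Of 16 cell cycle inhibitors 5 rose, of which 2 rises were counted without replicate 1 of both ages. The largest was that of Gadd45g, a stress and growth arrest gene, with 7.40, 7.65 and 7.48 at E15.5 and 8.92, 8.96 and 8.58 at E16.5. Of 24 chromatin genes 10 fell and none rose, among them Hmgb3 (-0.57 ± 0.09), but only 2 fell without replicate 1 of both ages.

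The regions before the start of the replication genes were searched for an E2F site (TTTNNCGC) and the CCAAT box of NFY (CCAAT) on both strands. RefSeq held 28 regions for 23 of the 29 genes. The E2F letters were found in 39.3% of them and in 4.28% of all regions, and CCAAT in 71.4% and 33.8%. These shares describe the list and not its change at E16.5, and a link between the motifs and the falls was not tested. The regions of Orc1 (chr4:108579204-108579453, plus strand) and Gins3 (chr8:95633309-95633558, plus strand) are shown as those of called genes that hold both motifs, in capitals.
Orc1: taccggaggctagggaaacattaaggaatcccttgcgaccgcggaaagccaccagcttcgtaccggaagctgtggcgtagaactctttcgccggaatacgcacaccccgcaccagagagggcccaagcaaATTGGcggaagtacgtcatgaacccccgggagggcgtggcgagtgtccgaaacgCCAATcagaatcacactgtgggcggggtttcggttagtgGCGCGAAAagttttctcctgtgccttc
Gins3: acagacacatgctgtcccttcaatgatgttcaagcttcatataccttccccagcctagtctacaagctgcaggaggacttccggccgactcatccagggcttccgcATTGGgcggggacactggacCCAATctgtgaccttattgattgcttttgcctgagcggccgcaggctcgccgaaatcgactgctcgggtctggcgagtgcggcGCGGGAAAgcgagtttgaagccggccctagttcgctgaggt

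The largest fall of all was that of an embryonic globin. Hbb-y, a beta-like globin of the primitive red cells that the yolk sac makes, had 11.49, 11.13 and 11.27 at E15.5 and 8.64, 7.78 and 7.97 at E16.5. The change was -3.17 ± 0.28, or 8.98-fold (adjusted p = 1.05e-09), and the arrays with liver mRNA were the highest of each age. Hba-x, the embryonic alpha-like globin, went from 8.52, 7.92 and 8.77 to 7.47, 7.27 and 7.15. All 3 embryonic globins measured fell, though Hbb-bh1 (-0.35 ± 0.10) was not called without replicate 1 of both ages. Among the 18 genes of the erythroid list only Gata1 fell, and that call was also lost without replicate 1 of both ages.

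Other named falls were scattered over functions. Cym, which encodes chymosin, had 10.15, 10.05 and 9.97 at E15.5 and 8.40, 8.07 and 8.24 at E16.5, a change of -1.82 ± 0.23 (adjusted p = 1.1e-06). Srm, which makes spermidine, and Dctd, a deaminase of nucleotide synthesis, fell by 1.0 and 1.01 on the log2 scale. Ptn, a heparin-binding growth factor, fell by 0.90, and Dcx, a microtubule protein of young neurons, by 0.91. Of 24 Hox genes 7 fell and none rose, against 7.50% of all genes falling. Without replicate 1 of both ages 3 fell, in a fit where 538 of 21789 probe sets did. The largest fall was that of Hoxb5, with 8.72, 8.57 and 8.62 at E15.5 and 8.04, 8.05 and 7.94 at E16.5. Of 21 genes of fetal growth 5 fell and 1 rose, and 1 fell and 1 rose without replicate 1 of both ages. Genes of skeletal muscle (15), thymus (13) and thyroid (5) gave no call at an adjusted p under 0.05 in either direction. Of the heart genes only Myh7 was called, with 6.84, 6.35 and 6.22 at E15.5 and 7.80, 7.92 and 7.71 at E16.5, and of the liver genes only Trf, which encodes transferrin (0.87 ± 0.25).

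**Figure D4:**
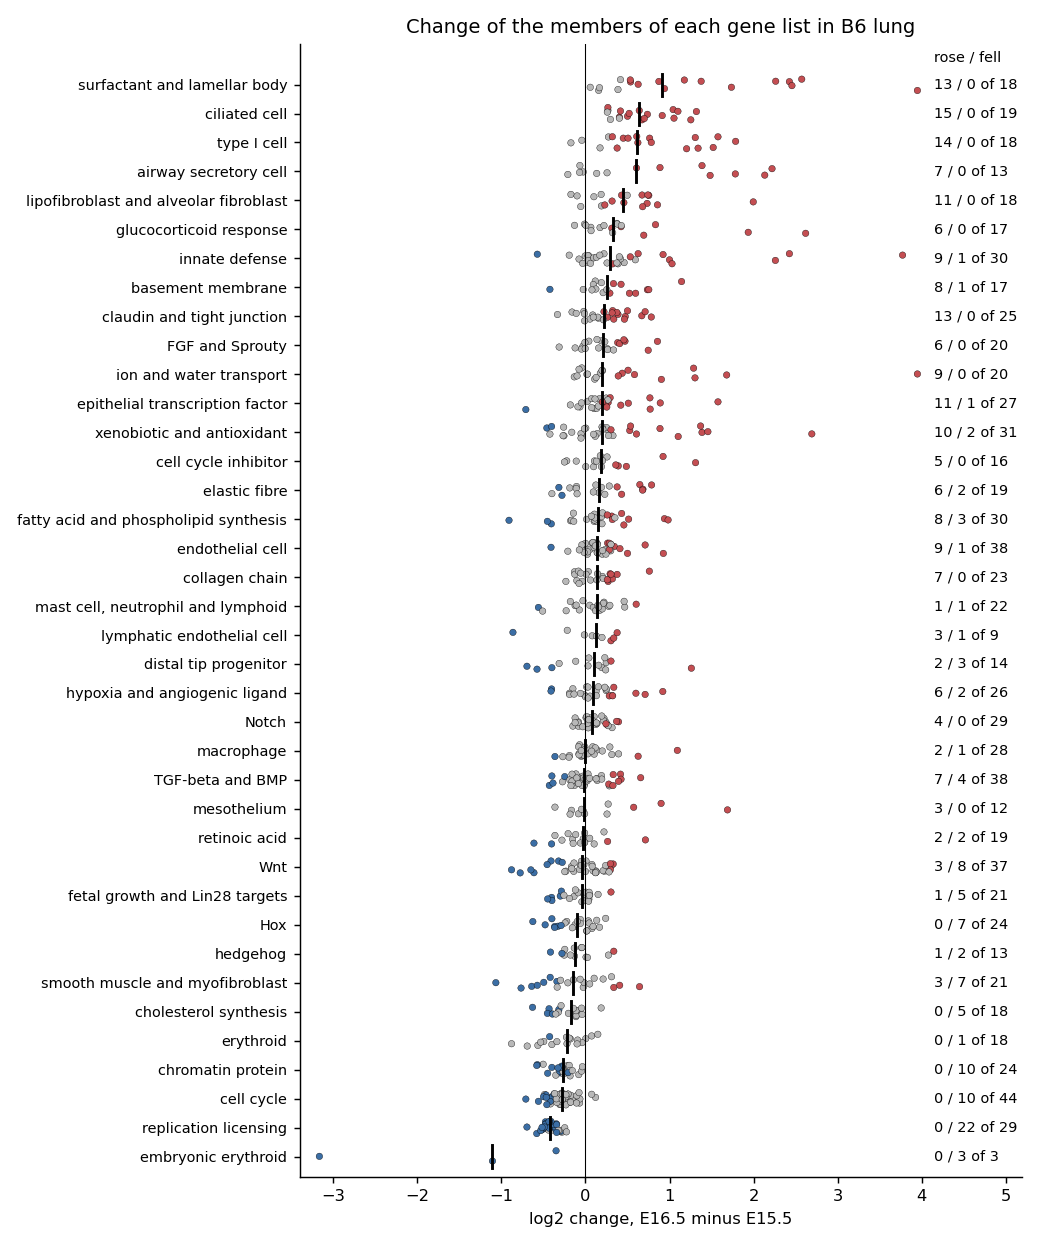
Log2 change from E15.5 to E16.5 (horizontal axis) of each measured member of the gene lists shown, ordered by the list's median (black bar). Liver, heart, esophagus, skeletal muscle, thymus, thyroid, nerve, cartilage and neuroendocrine lists are left out. So are the regulators that the study named and the lists chosen by symbol. Red members rose, blue members fell and grey members did not pass the threshold, with the counts at the right; the surfactant list stands at the top (13 of 18 rose, median 0.91) and replication licensing (22 of 29 fell, median -0.43) and the 3 embryonic globins at the bottom.

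The same step was measured in A/J lungs, which shared no array with B6. Both steps were tested in the same fit with a shared variance for each probe set, so the calls of the strains are not independent. In A/J 6.66% of probe sets were called. There 4.69% of probe sets rose and 1.97% fell. Of the 3129 probe sets called in B6, 1080 were also called in A/J, which is 34.5% of the B6 calls and 74.4% of the A/J calls, and all 1080 moved the same way. Of the B6 calls 93.4% had the same sign in A/J, and the share over all probe sets was not counted. The A/J change had a median of 0.34 over the probe sets that rose in B6 and of -0.18 over those that fell. These probe sets were selected on their B6 change.

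The surfactant list rose in A/J with the same count, 13 of 18, and a median of 0.66. Slc34a2 rose by 2.23 in A/J, Retnla by 2.23, Cxcl15 by 0.93 and Cd36 by 1.11. Their B6 changes were larger by 1.72 ± 0.35, 1.54 ± 0.34, 1.33 ± 0.23 and 0.89 ± 0.18. In limma these differences had an adjusted p of 0.125, 0.157, 0.0671 and 0.125, none past the threshold. The genes were picked from the largest rises in B6, which by itself favours larger B6 values. Others of that ranking differed less, among them Fmo2 (0.61 ± 0.23), Zbtb16 (0.33 ± 0.32), Reg3g (0.28 ± 0.41) and Atp6v0a4 (0.21 ± 0.22). Scgb1a1 changed by -0.23 in A/J and by 1.78 in B6, a difference of 2.01 ± 0.58 (adjusted p = 0.378). Replication licensing genes, of which 22 fell in B6, gave 0 falls in A/J, with a median of -0.21. In limma's test of the difference between the strains itself, no probe set passed an adjusted p of 0.05, (0 of 21789), while 1903 (8.73%) had an unadjusted p under 0.05.

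**Figure D5:**
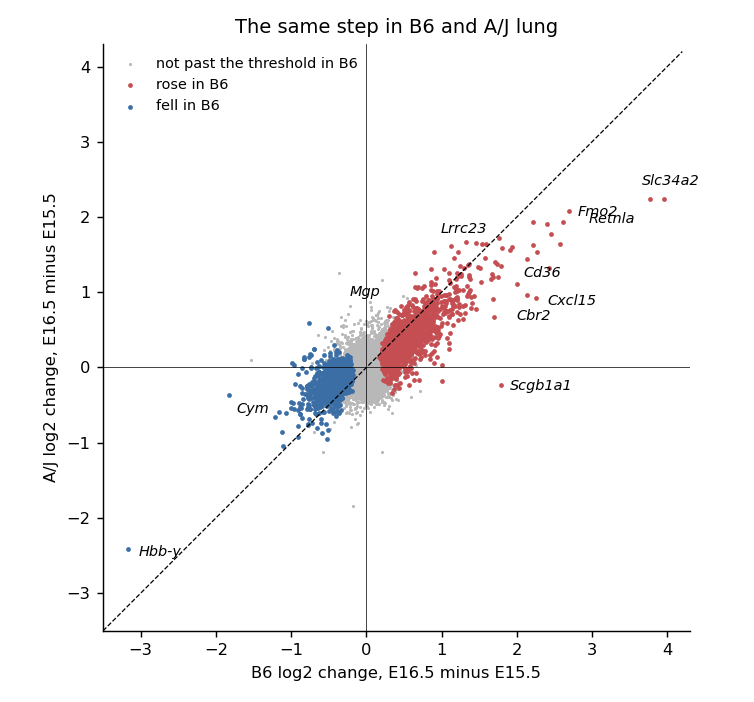
Log2 change from E15.5 to E16.5 in A/J (vertical axis) against that in B6 (horizontal axis) for all tested probe sets, coloured by the B6 call, with the line of equal change dashed. Slc34a2 (3.95 in B6, 2.23 in A/J) and Cxcl15 (2.26 and 0.93) lie below the line, Lrrc23 (1.76 and 1.72) lies close to it, and no difference passed an adjusted p of 0.05.

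The next day of the B6 series, E16.5 to E17.5, uses the same E16.5 arrays, so its values are given only side by side. In that step 6.49% of probe sets rose and 9.16% fell. Slc34a2 changed by 3.95 and then by 1.5, Sftpb by 2.26 and then by 0.84, and Scgb1a1 by 1.78 and then by 2.96. Sftpd, which did not pass at E16.5, changed by 2.16 in the next step, and Aqp5 by 0.82. Of the ciliated genes 15 rose and then 6, and of the type I genes 14 rose and then 17. Of the 44 cell cycle genes 10 fell and then 38, with medians of -0.28 and -0.69, and of the 29 replication licensing genes 22 fell and then 28.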

How the data were processed

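The values were the log2 expression values that the authors deposited for 37 arrays. Per their methods they were summarised per probe set by RMA (background correction, quantile normalization and median polish) in Affymetrix Expression Console 1.1. Probe sets with exactly 1 gene symbol in the platform annotation (21789) were kept, while 1621 had several symbols and 12146 had none. Groups came from the labels. At a later age, 1 B6 array whose label reads as a repeat was averaged with its pair, leaving 36 replicates. The labels do not say whether both came from the same litter.

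A limma model with a mean for each of 12 strain and age groups was fitted (R 4.3.3, limma 3.58.1), with p-values of the moderated test adjusted by Benjamini-Hochberg over 21789 probe sets. The SE is the moderated SE. Where a gene had several probe sets, its brightest (by the mean of every array) is given. The named genes were the 20 largest rises and the 20 largest falls among called genes whose replicates did not overlap, and up to 6 members of each list with the largest change. Predicted genes, Riken clones and symbols with no settled name were left out of the ranking of rises and falls. Other list members were named after their values were seen, most of them for their role. The members and gene lists were chosen with earlier results of these data known. On simulated data with 100 changes of each size and independent noise in each array, 98% of 2-fold and 83% of 1.5-fold changes were recovered. There were 5 false calls among the probe sets left unchanged. The simulated arrays held no mRNA of other tissues and far fewer changes than were called, so these shares may not hold for the measured arrays. Replicates were litters, and 3 a group limits the precision. Alternatives changed the scaling, the probe sets, the samples, the variance prior and the fold. Sequences were from RefSeq (GRCm38.p6).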

Additional observations from a re-analysis of the deposited data

How the results depend on the processing

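No named gene changed sign while called under any alternative, but the balance of the counts turned. More probe sets fell than rose in the main fit (47.6% of calls higher), while more rose than fell after a further quantile normalization (1698 and 1239, 57.8% higher) and without replicate 1 of both B6 ages (61.5% higher). Without replicate 1 of both B6 ages 861 probe sets rose and 538 fell, and of the main calls 855 and 533 stayed called, a count chosen after seeing the data. With a fold of at least 1.5 these were 474 and 176. Leaving out 1 B6 replicate gave 998 to 1354 rises and 807 to 1435 falls. For the strain difference, 1 probe set was called after a further quantile normalization, 1 with dim probe sets left out and 6 with an intensity trend in the variance prior, and 0 to 15 when leaving out 1 replicate, 15 being without A/J E16.5 replicate 1. Of 38 endothelial genes 14 rose after quantile normalization, 14 without dim probe sets and 2 with the fold (6 to 9 when leaving out 1 replicate). Of smooth muscle genes 5 rose after quantile normalization, 5 without dim probe sets, 5 with the trend and 1 with the fold (1 to 4 when leaving out 1 replicate), and 3 fell without replicate 1 of both ages and 3 with the fold (6 to 7). Of fibroblast genes 7 rose with the fold (9 to 11). Of cell cycle genes 27 fell in a fit of the 6 arrays alone, 4 without replicate 1 of both ages and 1 with the fold (5 to 9, with 6 without E15.5 replicate 1 and 5 without E16.5 replicate 2). Of replication licensing genes 14 fell after quantile normalization, 7 without replicate 1 of both ages and 1 with the fold (10 to 20). The 1 liver gene, Trf, gave 0 in the 6 arrays alone (0 to 1). Leaving out 1 replicate gave 12 to 13 rises in the surfactant list, 12 to 15 in type I, 7 in airway secretory and 13 to 17 in ciliated genes, and 2 to 3 falls of embryonic globins. The cause of these shifts was not tested, beyond fewer samples and the added fold.

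Replicate numbers were not used to pair the samples in the main fit. Deviations of same-numbered arrays correlated at 0.238, 0.0705 and 0.00449, and those of differently numbered arrays at -0.224 to 0.166. The highest value was that of the replicate 1 arrays, which both held liver mRNAs. With the replicate number as a block the 6 arrays gave 1493 rises and 1594 falls, and 19 cell cycle genes fell. Of 280 genes in 18 alternatives, 4585 values stayed on their side of the threshold, 81 passed it and 320 no longer did, and of 202 called genes 142 stayed called in every alternative but the fold.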

Other observations

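The lists given next were chosen by symbol after their values were seen, and 7.50% of all genes were called lower. Of 54 ribosome assembly factors 39 were called lower and none higher, with a median log2 change of -0.35, and 20 were called lower without replicate 1 of both ages. Of 51 small nucleolar RNAs, which guide the modification of ribosomal RNA, 23 were called lower and none higher, and 5 were called lower without replicate 1 of both ages. Snord52 had log2 values of 8.09, 7.81 and 7.73 at E15.5 and 6.51, 6.74 and 6.73 at E16.5, and Snord49a had 8.25, 8.18 and 8.16 and then 7.11, 7.21 and 7.33. Of 59 cytosolic ribosomal protein genes 3 were called lower, with a median of -0.04, and 1 without replicate 1 of both ages.

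Of 77 mitochondrial ribosomal protein genes 16 were called lower and none higher (median -0.21), and of 39 proteasome subunits 16 were called lower and none higher (median -0.22). Without replicate 1 of both ages these counts were 4 and 5. In A/J 13 ribosome assembly factors, 3 small nucleolar RNAs, 1 mitochondrial ribosomal protein and 0 proteasome subunits were called lower by limma. The difference between the strains was not called for any probe set. Of 1027 olfactory receptor genes 5 were called higher and none lower, against 6.70% and 7.50% of all genes. Without replicate 1 of both ages 1 was called higher.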
